A study of Mus musculus with 16 samples.

Results

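The fibrillar collagens described here are 10 genes, taken by name from the 49315 genes of the expression table. The rule sorts them by collagen type and contains no measured value, but it was set with earlier results of these data known. Col2a1, Col11a1, Col11a2 and Col27a1 encode chains of the 4-gene cartilage group (types II, XI and XXVII), and Col1a1, Col1a2, Col3a1, Col5a1, Col5a2 and Col5a3 encode chains of the 6-gene fibrous group (types I, III and V). RNA had been sequenced from the tail intervertebral discs of 16 mice, with 4 discs pooled per mouse, so that each library stood for 1 animal. Mice were wild type or carried Adam8EQ, an allele of the membrane-bound metalloprotease gene Adam8 that the labels describe no further, and their discs were intact or injured. There were 3 intact and 4 injured wild-type mice, and 4 intact and 5 injured mutant mice. The series title names DBA, an inbred strain, for the comparison. Age, sex, the method of injury and the time after it are not given in the sources used here.

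Fibrillar collagens are made as procollagen chains that wind into triple helices, are trimmed outside the cell and pack side by side into banded fibrils. Type II collagen is the main fibril of cartilage and of the nucleus pulposus, the soft core of the disc, and type XI collagen sits in the same fibrils and limits their width. Type I collagen is the main fibril of the outer annulus fibrosus, of tendon and of bone, where type V collagen starts the fibrils, and type III collagen is typical of young or repairing connective tissue. Type XXVII collagen is made largely by chondrocytes.

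All 10 genes are protein-coding, and positions are those of the whole gene, introns included, on GRCm38. Col2a1 (ENSMUSG00000022483, chr15:97975602-98004695, minus strand) encodes the chain of which type II collagen is a homotrimer. Col11a1 (ENSMUSG00000027966, chr3:114030540-114220718, plus strand) and Col11a2 (ENSMUSG00000024330, chr17:34039437-34066685, plus strand) encode partner chains of type XI. Col27a1 (ENSMUSG00000045672, chr4:63214004-63334991, plus strand) encodes the chain of type XXVII. Col1a1 (ENSMUSG00000001506, chr11:94936224-94953042, plus strand) and Col1a2 (ENSMUSG00000029661, chr6:4504814-4541544, plus strand) encode the chains of type I. Col3a1 (ENSMUSG00000026043, chr1:45311538-45349706, plus strand) encodes the chain of type III. Col5a1 (ENSMUSG00000026837, chr2:27886425-28039514, plus strand), Col5a2 (ENSMUSG00000026042, chr1:45374321-45503282, minus strand) and Col5a3 (ENSMUSG00000004098, chr9:20770050-20815067, minus strand) encode the chains of type V. Col3a1 and Col5a2 lie tail to tail on chromosome 1, 24614 bases apart, with 0 annotated genes between them. Annotated exons of Col3a1 share bases with Gm47302, and those of Col5a1 with 2810430I11Rik and Gm13372. Whether the counting used strand is not given in the sources used here, so reads over those bases cannot be assigned and the values of Col3a1 and Col5a1 are uncertain to that extent.

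Promoters were available from RefSeq on build GRCm38.p6 for 7 of the 10 genes. The 3 printed here belong to Col3a1, the member with the largest rise after injury below, and to Col11a1 and Col11a2, partner chains of type XI whose ratio did not overlap between intact and injured mutant discs. Each holds the 250 bases before the RefSeq start, 5′ to 3′ on the plus strand, and capitals mark matches to 4 short motifs on either strand. The windows are chr1:45311288-45311537 for Col3a1, chr3:114030290-114030539 for Col11a1 and chr17:34038888-34039137 for Col11a2.
Col3a1: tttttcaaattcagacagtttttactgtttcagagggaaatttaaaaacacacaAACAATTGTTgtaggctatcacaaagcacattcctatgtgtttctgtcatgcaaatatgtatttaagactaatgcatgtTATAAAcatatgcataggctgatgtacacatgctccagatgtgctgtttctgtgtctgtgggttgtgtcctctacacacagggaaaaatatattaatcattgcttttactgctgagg
Col11a1: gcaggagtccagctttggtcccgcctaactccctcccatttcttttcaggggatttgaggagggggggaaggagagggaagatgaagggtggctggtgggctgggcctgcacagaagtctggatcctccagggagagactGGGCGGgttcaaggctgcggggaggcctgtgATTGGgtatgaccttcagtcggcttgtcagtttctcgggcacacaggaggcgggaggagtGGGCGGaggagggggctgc
Col11a2: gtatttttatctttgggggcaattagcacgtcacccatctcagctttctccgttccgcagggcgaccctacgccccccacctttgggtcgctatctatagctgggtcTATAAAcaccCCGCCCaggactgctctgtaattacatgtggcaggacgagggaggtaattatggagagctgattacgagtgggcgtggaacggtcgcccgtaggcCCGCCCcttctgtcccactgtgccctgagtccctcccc
The motifs were the CCAAT box (CCAAT), the GC box (GGGCGG), the TATA box (TATAAA) and a SOX-type motif (AACAAT), and they can overlap. Col3a1 held a TATA box beginning 117 bases before the start, and 2 overlapping SOX-type matches, at positions -196 and -192 from the start, in a run that reads the same on both strands. Its GC content was 35.2%, against 62.4% for Col11a1 and 57.6% for Col11a2. Col11a1 held a CCAAT box and 2 GC boxes, and Col11a2 held a TATA box and 2 GC boxes. A GC box was found in 6 of the 7 promoters matched, in all but that of Col3a1. Among all 32851 promoters of the table, the same windows held a CCAAT box in 33.85%, a GC box in 32.7%, a TATA box in 12.4% and a SOX-type match in 9.42%. A match is a description of the letters and no evidence of binding.

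The deposited values were TPM, transcript abundances scaled by gene length and library total, so levels of different genes can be set side by side. Reads per library, approximated from the smallest steps of the TPM values, ranged from 10195558 to 24832855, and a member's level in a library rested on 530 reads (Col5a3) or more. Cartilage markers summed to between 6920 and 8185 TPM over 6 genes in intact discs, and notochordal markers to between 3329 and 6431 TPM over 7 genes, so the labelled tissue carried the markers of disc cells. Leukocyte markers summed to between 57.3 and 121 TPM over 8 genes in intact discs, and to between 139 and 7267 TPM in injured discs. No gene of the 11 marker lists was at 0 in every library. Adam8 was at 0.956 to 2.97 TPM in intact discs, 3.52 to 66.3 TPM in injured wild-type discs and 16.2 to 264 TPM in injured mutant discs, and an RNA level does not check an allele whose lesion is not described. Names of mutant libraries begin with A8 in intact mice 1 and 2 and injured mice 1 and 2, and with M in the other mutants. All wild-type names begin with D, so naming and genotype cannot be told apart. In bulk tissue, fewer cells of a type and less RNA per cell cannot be told apart either.

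Col2a1 was the most abundant member in intact discs. It stood at 1697, 2331 and 2046 TPM in the intact wild-type mice and at 2084, 1946, 3316 and 3251 TPM in the intact mutants, and over all 16 libraries its median rank among all genes was 25.5. Col1a1 came next, at 670, 945 and 589 TPM in intact wild-type discs and 1296, 984, 661 and 844 TPM in intact mutant discs. Below it in intact wild-type discs lay Col1a2 (228 to 287 TPM) and Col5a1 (214 to 312 TPM), whose ranges overlapped. Col11a2 (191 to 195 TPM) and Col11a1 (181 to 188 TPM) were close together and did not overlap. Col27a1 followed at 86.4 to 119 TPM. Col5a2 (48.3 to 78.9 TPM), Col3a1 (32.9 to 61.3 TPM) and Col5a3 (30.2 to 46.2 TPM) were the least abundant, and Col3a1 overlapped both of the others. Type II and type I transcripts were thus both present in the uninjured disc, with Col2a1 at 2.47 to 3.47 times Col1a1 in wild-type mice and 1.61 to 5.01 times in mutants.

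**Figure D1:**
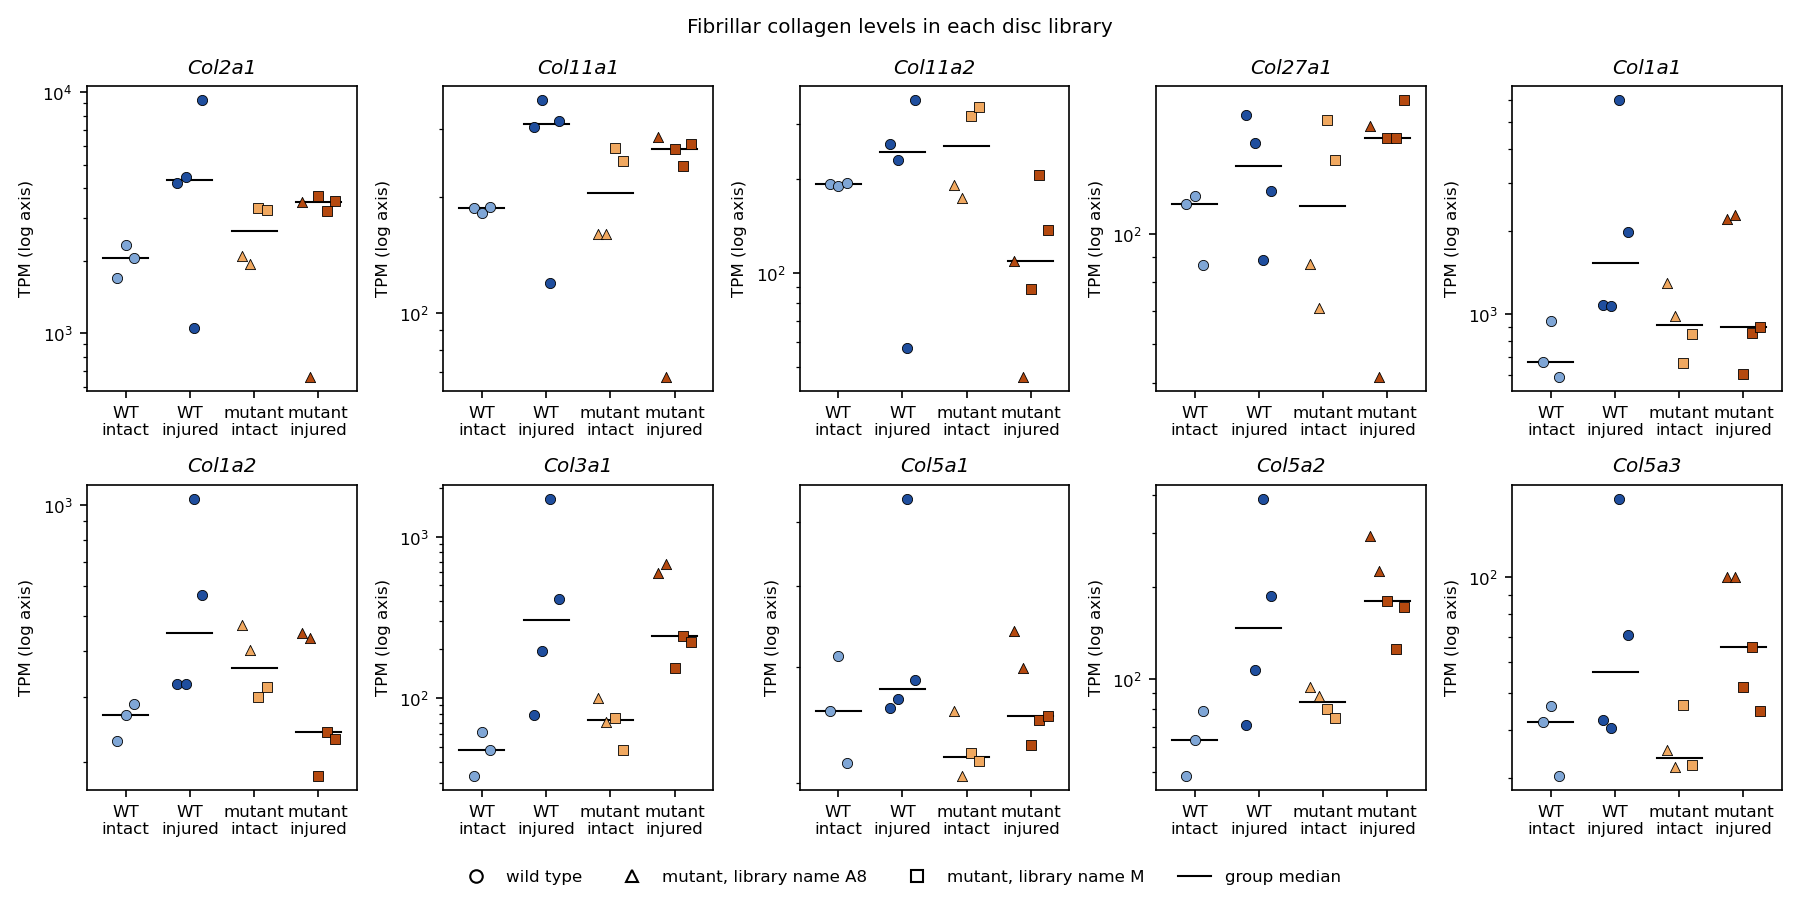
Level of each fibrillar collagen gene in each of the 16 disc libraries, in TPM on a log axis, with points for single mice and a line at the group median; shapes mark the library name. Col3a1 and Col5a2 lie higher in all 5 injured mutants than in all 4 intact ones, and injured wild-type mouse 3 and injured mutant mouse 2 are the lowest of their groups in the 4 cartilage chains.

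The comparison of injured with intact discs asks how injury alters the disc transcriptome in each genotype. In mutants, Col3a1 and Col5a2 rose, and no other member passed the test. Col3a1 stood at 100.6, 71.1, 75.8 and 47.7 TPM in intact mutants and at 596, 678, 153, 241 and 222 TPM in injured mutants. Every injured mutant was above every intact one, and the injured mice named A8 (mice 1 and 2) were the highest. The rise was 2.15 ± 0.75 (SE) on the log2(TPM + 1) scale, or 4.43-fold on that scale (limma adjusted p = 0.02697, 5 against 4 mice).

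Col5a2, which encodes the second chain of the common type V heterotrimer, stood at 94.2, 87.9, 80.3 and 74.8 TPM in intact mutants and at 293, 225, 180, 125 and 172 TPM in injured mutants. Here too the groups did not overlap. The rise was 1.18 ± 0.41 on the log2 scale, or 2.26-fold (limma adjusted p = 0.02712). The 2 members called of 10 compare with 30.8% of the 24188 genes tested that were called in that contrast, 13.1% as higher, so the share of members called was no larger than the background share. Groups without overlap were found for these 2 members and for 27.2% of all genes tested, 12% as higher. Both calls lay near the threshold. The adjusted p was above 0.05, and the call lost, for both genes without intact mutant 2 (0.05888 for Col3a1 and 0.05505 for Col5a2), intact mutant 4 (0.07397 and 0.06582), injured mutant 1 (0.06294 and 0.06498) or injured mutant 2 (0.06102 and 0.05262), and for Col5a2 without intact mutant 3 (0.05439), with log2 changes that stayed at 1.88 or more for Col3a1 and 1.02 or more for Col5a2. With the mouse number as a replicate block, which was not used because the numbers do not pair the mice, they were 0.05587 and 0.05276.

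The other fibrous chains did not pass the test in mutants. Col5a3 stood at 35.4, 31.9, 46.4 and 32.3 TPM in intact mutants and at 99.9, 100.1, 51.7, 65.9 and 44.8 TPM in injured mutants, with overlap of a single mouse of each group and a log2 difference of 0.91 ± 0.39 (limma adjusted p = 0.062). Its adjusted p was 0.01382 without injured wild-type mouse 3, which enters through the shared estimate of the spread, and 0.04036 without injured mutant 5. It also passed under median-of-ratios scaling (limma adjusted p = 0.04749), with sample weights (0.03635) and in a fit of the 2 groups alone (0.02488). Col5a1 stood at 205 to 257 TPM in intact and 228 to 341 TPM in injured mutants (log2 difference 0.27 ± 0.21, limma adjusted p = 0.3171). Col1a1 stood at 2210, 2286, 607, 853 and 899 TPM in injured mutants, a log2 difference of 0.37 ± 0.54 from intact (limma adjusted p = 0.609). The high pair is again the A8-named mice, and the other 3 lie inside the intact range or just below it. Col1a2 stood at 472, 403, 301 and 319 TPM in intact mutants and at 449, 434, 183, 242 and 231 TPM in injured mutants (log2 difference -0.35 ± 0.37, limma adjusted p = 0.46).

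Of the cartilage chains in mutants, Col11a2 showed the largest difference. It stood at 192, 174, 320 and 341 TPM in intact mutants and at 109, 46.3, 88.7, 207 and 137 TPM in injured mutants. One injured mouse, number 4, lay above the lower intact pair. The log2 difference was -1.22 ± 0.52 and missed the threshold (limma adjusted p = 0.06325). It passed without injured wild-type mouse 3 (adjusted p = 0.01423) and without injured mutant 4 (-1.46, adjusted p = 0.03156). It also passed with sample weights (limma adjusted p = 0.03738), in a fit of the 2 groups alone (0.04359), with the replicate block (-1.31, 0.04591), and with covariates for A8 names (0.03256) or skeletal muscle markers (0.03158).

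Its partner Col11a1 stood at 160, 160, 268 and 248 TPM in intact mutants and at 286, 68.0, 266, 240 and 274 TPM in injured mutants, with a log2 difference of -0.00 ± 0.44 (limma adjusted p = 0.9972). Col2a1 stood at 3511, 658, 3713, 3218 and 3557 TPM in injured mutants, a log2 difference of -0.04 ± 0.63 (limma adjusted p = 0.9687), and the signs of Col2a1 and Col11a1 turned under median-of-ratios scaling (0.05 and 0.09). Col27a1 stood at 86.9, 70.7, 170 and 141 TPM in intact and 166, 51.3, 156, 156 and 187 TPM in injured mutants (0.25 ± 0.39, limma adjusted p = 0.6229). In these 3 genes the lowest injured value belonged to mouse 2, and the other 4 injured mice lay within or above the intact range.

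In wild-type mice, 0 of the 10 members passed limma's adjusted p of 0.05, against 0.116% of all genes tested. At an unadjusted p under 0.05 there were 4 members, all fibrous chains, against 17.2% of all genes. Col3a1 stood at 32.9, 61.3 and 47.9 TPM in intact mice and at 79.0, 197, 1714 and 412 TPM in injured mice. All injured mice were above all intact ones, and mouse 3 was far above the rest. The log2 difference was 2.79 ± 0.85 (limma adjusted p = 0.1371, 4 against 3 mice). Col1a1 stood at 1082, 1072, 6014 and 1983 TPM in injured wild-type discs, above the intact range (1.42 ± 0.62, limma adjusted p = 0.2398). Col1a2 stood at 327, 326, 1036 and 570 TPM, also above the intact range (0.94 ± 0.42, limma adjusted p = 0.2439). Groups that do not overlap were found for these 3 members of 10, all higher, and for 15.6% of all genes tested, 9.22% as higher.

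Col5a2 stood at 70.8, 108, 387 and 187 TPM in injured wild-type mice, with mouse 1 inside the intact range (1.28 ± 0.47, limma adjusted p = 0.1769). Col5a1 stood at 260, 268, 543 and 287 TPM, and Col5a3 at 42.4, 40.4, 160 and 70.7 TPM, with log2 differences of 0.32 ± 0.24 and 0.76 ± 0.44 (limma adjusted p = 0.4641 and 0.339). In all 6 fibrous chains mouse 3 was the highest injured wild-type mouse and mouse 4 the next. Injured wild-type mouse 1 decided the calls: without it Col3a1 (3.47, limma adjusted p = 0.03345) and Col5a2 (1.65, limma adjusted p = 0.04406) passed. The shift was not particular to these genes, since calls over all genes went from 28 to 452 without that mouse.

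Among the cartilage chains of wild-type mice, Col2a1 stood at 4200, 4454, 1052 and 9312 TPM after injury, so that 3 mice lay above the intact range and mouse 3 below it (0.87 ± 0.71, limma adjusted p = 0.5024). Col11a1 likewise had mouse 3 below and the others above the intact range, at 304, 357, 119 and 315 TPM (0.45 ± 0.50, limma adjusted p = 0.6283). Col11a2 stood at 260, 230, 57.5 and 359 TPM (-0.04 ± 0.59, limma adjusted p = 0.9781), and without mouse 3 the value was 0.52. Col27a1 stood at 174, 153, 88.4 and 122 TPM (0.30 ± 0.44, limma adjusted p = 0.7226). Over the 4 cartilage chains the median log2 difference was 0.37 in wild-type mice and -0.02 in mutants, and over the 6 fibrous chains it was 1.11 and 0.64. Over all genes tested the medians were 0.01 and -0.08.

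**Figure D2:**
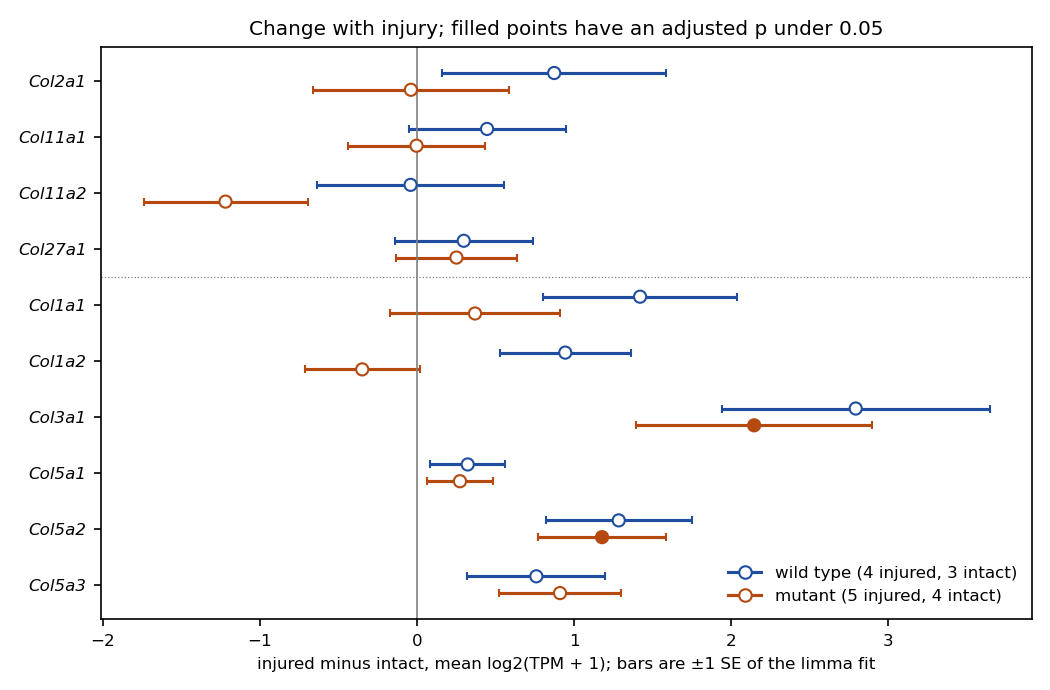
Injured minus intact difference of each member in wild-type and mutant mice, as mean log2(TPM + 1) with bars of 1 SE from the limma fit; filled points have an adjusted p under 0.05. Col3a1 (2.15) and Col5a2 (1.18) in mutants are the filled points, and Col11a2 in mutants lies at -1.22 without passing.

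Whether the injury differences of the genotypes differ was tested with an interaction term. It passed for 0 of 10 members, as for 0% of all genes (limma), and 1 member had an unadjusted p under 0.05, against 8.18% of all genes. That member was Col1a2, whose injury difference was lower in mutants by a log2 value of -1.29 ± 0.55 (limma adjusted p = 0.5447). For Col3a1 the interaction was -0.65 ± 1.14 (limma adjusted p = 0.8853) and for Col5a2 -0.11 ± 0.62 (limma adjusted p = 0.9721). A difference between genotypes in the effect of injury was therefore not shown for either gene, and leaving out 1 mouse moved the Col3a1 value between -1.32 and 0.15. For Col11a2 it was -1.18 ± 0.79 (limma adjusted p = 0.6904).

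Between genotypes in intact discs, 0 of 10 members passed limma's test, against 0.0165% of all genes, and 0 members had an unadjusted p under 0.05, against 3.78%. The log2 differences, mutant minus wild type, ran from -0.20 (Col5a1) to 0.62 (Col3a1). Col1a2 was the member whose groups did not overlap, with 228, 268 and 287 TPM in wild-type mice below 301 to 472 TPM in mutants (0.50 ± 0.42, limma adjusted p = 1), where 6.18% of all genes had groups without overlap, 2.77% as higher. Between genotypes in injured discs, 0 of 10 passed, against 0.918% of all genes. Col1a2 had an unadjusted p of 0.03141 there, with a log2 difference of -0.80 ± 0.37 (limma adjusted p = 0.2003), and 20.3% of all genes were under 0.05. Groups did not overlap for 0 members and 4.77% of all genes. For Col11a2 the difference was -0.83 ± 0.52 (limma adjusted p = 0.34), and without injured wild-type mouse 3 it was -1.40 and passed (limma adjusted p = 0.03443). Calls over all genes went from 222 to 2253 without that mouse.

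Within a library, the ratio of chain levels does not depend on how the library was scaled. Such ratios are described here without a test, and how many ratios of other genes separate the same groups was not counted. Single genes separated intact from injured mutants without overlap in 27.2% of those tested. Col3a1 was 0.0490, 0.0649 and 0.0813 of Col1a1 in intact wild-type mice and 0.0776, 0.0722, 0.115 and 0.0565 of it in intact mutants. In the injured mutants the ratio was 0.270, 0.296, 0.253, 0.282 and 0.247. All 5 injured mutants were above every intact mouse and close to one another, although their Col3a1 levels ranged from 153 to 678 TPM. In injured wild-type mice the ratio was 0.0730, 0.183, 0.285 and 0.208, with mouse 1 inside the intact range.

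Col11a1 and Col11a2 were near parity in intact discs, with ratios of 0.964, 0.948 and 0.966 in wild-type mice and 0.832, 0.920, 0.837 and 0.727 in mutants. In injured mutants Col11a1 exceeded Col11a2, with ratios of 2.62, 1.47, 3.0005, 1.16 and 2.00. Injured wild-type mice had 1.17, 1.55, 2.07 and 0.876, so that mouse 4 stayed among the intact values. The type V pair moved the other way: Col5a1 was 2.33 to 5.32 times Col5a2 in the 7 intact mice and 1.16, 1.33, 1.26, 1.99 and 1.47 times in injured mutants. It was 3.68, 2.50, 1.40 and 1.54 times in injured wild-type mice.

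Col1a1 was 2.05 to 3.53 times Col1a2 in intact discs, 3.31 to 5.27 times in injured mutants and 3.31, 3.29, 5.80 and 3.48 times in injured wild-type mice. The ranges of intact and injured wild-type mice overlapped, while all injured mutants lay above all intact mutants (at most 2.75). Col2a1, whose product shares fibrils with that of Col11a1, was 8.83 to 14.0 times Col11a1 in 15 libraries and 29.6 times in injured wild-type mouse 4.

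**Figure D3:**
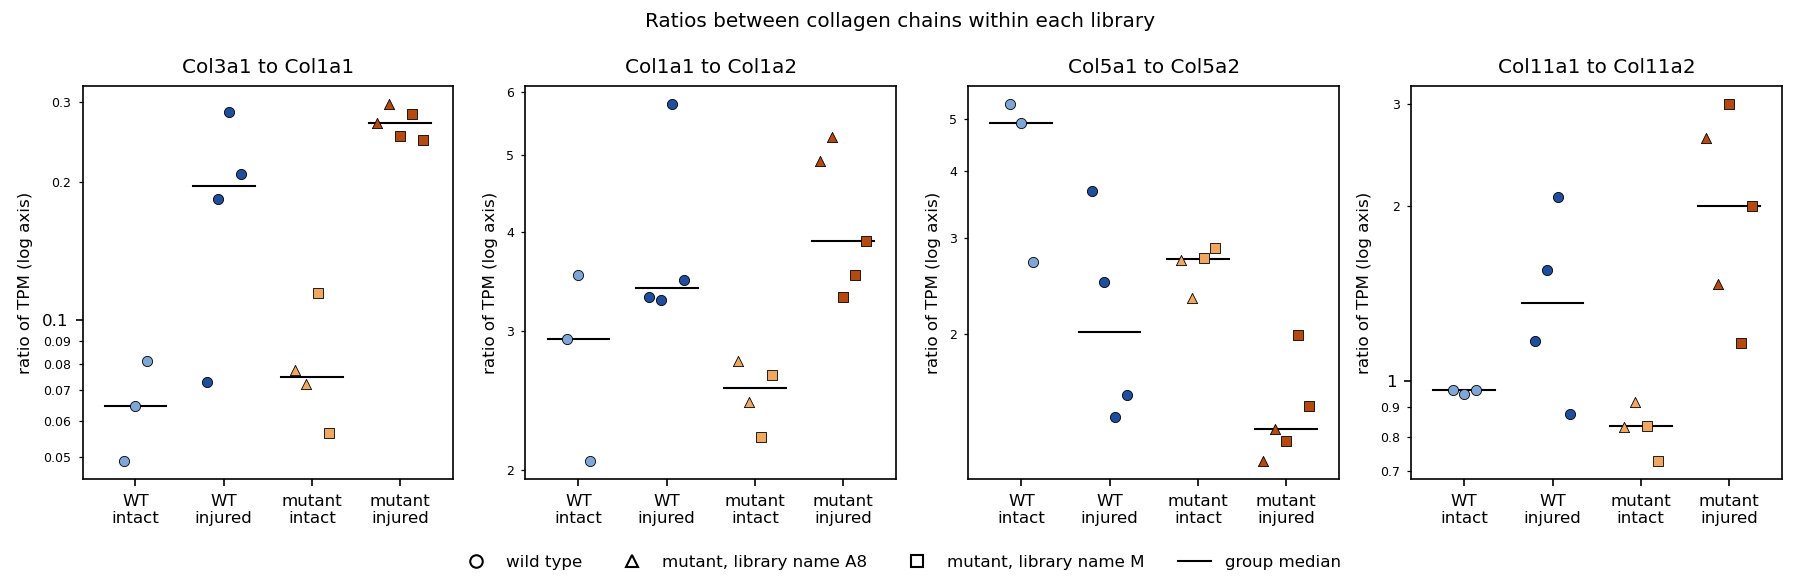
Ratios of TPM between pairs of fibrillar collagen chains in each library, on log axes, with points for mice, shapes for library names and lines at group medians. Col3a1 to Col1a1 is 0.247 to 0.296 in the 5 injured mutants and 0.115 or less in all intact mice, and Col11a1 to Col11a2 is 0.966 or less in all intact mice and 1.16 or more in the injured mutants.

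The 10 genes together made up 0.347% to 0.551% of all TPM in intact discs, 0.680% to 1.36% in injured wild-type discs and 0.485% to 0.806% in injured mutant discs. Cartilage-type chains took 62.5% to 66.9% of that sum in intact wild-type mice and 52.8% to 74.6% in intact mutants. After injury the share was 72.6%, 72.1%, 11.8% and 74.2% in wild-type mice and 50.5%, 17.0%, 75.1%, 68.3% and 69.5% in mutants. Injured wild-type mouse 3 and injured mutant mouse 2 thus carried mostly fibrous chains, with Col2a1 at 0.175 and 0.288 of Col1a1. An index of the 4 cartilage chains minus the 6 fibrous chains, each as mean log2(TPM + 1), averaged 1.15 ± 0.15 (SD, n = 3) in intact and 0.29 ± 1.82 (n = 4) in injured wild-type mice, and 1.11 ± 0.63 (n = 4) in intact and 0.10 ± 1.26 (n = 5) in injured mutants. The injury difference of the index in wild type was -0.86 over all mice and 0.03 without mouse 3, so 1 mouse set its sign. In mutants it was -1.01, and -0.49 without mouse 2.

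**Figure D4:**
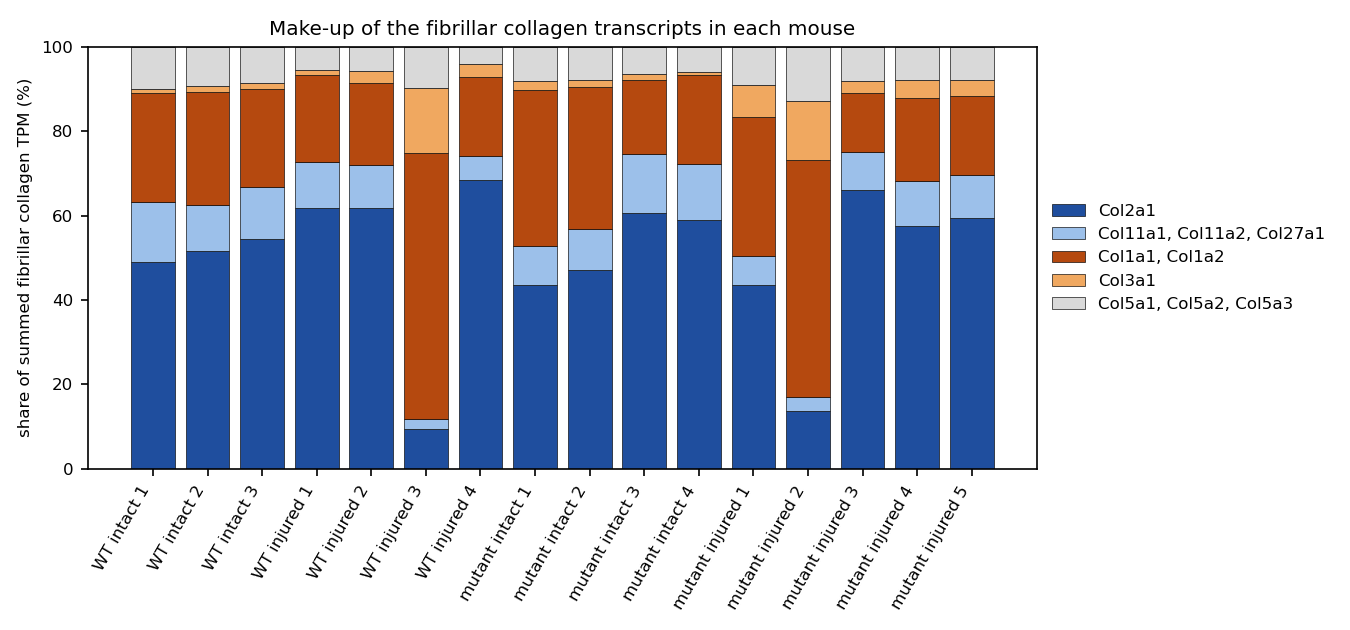
Share of each group of chains in the summed fibrillar collagen TPM of each mouse, as stacked bars from 0 to 100%. Cartilage-type chains take 52.8% to 74.6% in intact mice, and 11.8% and 17.0% in injured wild-type mouse 3 and injured mutant mouse 2.

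These 2 mice also lay at the ends of their groups in several marker sums. The tendon and fibroblast list (7 of 7 genes measured) summed to 248 to 307 TPM in intact wild-type mice and 263 to 301 TPM in intact mutants. It reached 999 TPM in injured wild-type mouse 3, within a range of 259 to 999 TPM for its group, and 420 TPM in injured mutant mouse 2, within 268 to 420 TPM and next to 402 TPM in mouse 5. The genes of this list did not all move alike. Mkx and Scx, both on it, fell with injury in mutants (log2 -1.27 and -0.57, limma adjusted p = 0.0036 and 0.04405), although the sum did not. The myofibroblast list (5 of 5) summed to 119 to 172 and 47.4 to 107 TPM in intact wild-type and mutant mice. After injury it summed to 57.1 to 486 and 35.4 to 200 TPM. Injured wild-type mouse 3 and injured mutant mouse 2 were the highest of their groups. As a mean of log2(TPM + 1) the mutant groups did not overlap, at 1.972 to 2.354 in intact mice and 2.396 or more in injured ones. That mean was 2.289 to 2.617 in intact wild-type mice and 2.257, 3.532, 5.787 and 4.006 in injured ones. The leukocyte list (8 of 8) was also highest in wild-type mouse 3 and mutant mouse 2, at 3168 and 7267 TPM. The cartilage list (6 of 7 measured) had its lowest sums there, at 4377 and 3554 TPM, beside medians of 7584 and 8125 TPM in their groups. By the mean of log2(TPM + 1) over those cartilage genes, injured mutant 1 (5.29) was lower than injured mutant 2 (5.39). Injured wild-type mouse 3 stayed the lowest of its group (5.42). The osteoblast list (7 of 7) ran from 51.2 to 78.1 TPM in intact and from 24.5 to 84.1 TPM in injured wild-type mice. In mutants it ran from 38.3 to 98.9 TPM in intact and from 8.97 to 38.2 TPM in injured discs. By the mean of log2(TPM + 1) the mutant groups overlapped, at 1.67 to 2.44 and 0.86 to 2.25. The endothelial list (5 of 5) stood at 179 TPM in wild-type mouse 3, 61.3 TPM in wild-type mouse 4 and 62.0 TPM in mutant mouse 2, beside at most 15.8 TPM in intact discs. The notochordal list (7 of 7), of cells that also make type II collagen, did not have its lowest mutant value in mouse 2. It stood at 5869 to 6431 TPM in intact wild-type mice and at 5263, 4246, 1457 and 2295 TPM in injured ones. In intact mutants it stood at 3329 to 5503 TPM, and in injured mutants at 553, 1414, 722, 3345 and 1880 TPM, so that mutants 1 and 3 were the lowest. No defining marker of these lists was at 0 in every library. In its group, injured wild-type mouse 3 was highest in the adipocyte list (62.8 beside 5.57 to 8.77 TPM) and the erythroid list (1473 beside 113 to 724 TPM). It was lowest there in the skeletal muscle (80.3 TPM) and epidermis lists (7.97 TPM). Injured mutant mouse 2 was lowest of its group in skeletal muscle (26.4 TPM), but not highest in the adipocyte (6.50 TPM) or erythroid list (533 TPM). Intact wild-type mouse 1 held 738 TPM of skeletal muscle and 57.6 TPM of adipocyte markers. The part of any of these cell types in the collagen values was not tested.

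Library naming moved with the balance of chains inside the mutants. In intact mutants the cartilage-type share was 52.8% and 56.9% in A8-named mice and 74.6% and 72.2% in M-named mice. In injured mutants it was 50.5% and 17.0% in A8-named mice and 68.3% to 75.1% in M-named mice. In a fit with separate means for A8 and M names, Col3a1 (2.90 ± 1.07, limma adjusted p = 0.0472) and Col5a3 (1.54 ± 0.55, limma adjusted p = 0.04163) rose with injury among A8 names, where 21.2% of all genes were called, 10% as higher. Among M names 0 of 10 members passed, against 4.47% of all genes. At an unadjusted p under 0.05 there were 0 members, against 25.3% of all genes, and Col3a1 had 1.73 ± 0.98 (limma adjusted p = 0.2339). The difference between the names in the effect of injury passed for 0 members and 0% of all genes, with the smallest unadjusted p of a member at 0.1251 (Col5a3). M against A8 names at equal treatment gave 0 calls as well, for members and for all genes. At an unadjusted p under 0.05 stood Col27a1 in intact mutants (0.97 higher in M), where 5.97% of all genes did, and Col27a1, Col1a1 and Col1a2 in injured mutants (0.84, -1.53 and -1.02), where 13.1% of all genes did. What the names stand for is not given in the sources used here, and their part in the injury values was not tested beyond these fits.

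The members' profiles over the 16 libraries were set side by side by the mean absolute difference of log2(TPM + 1) after centring each gene, a description that carries depth and tissue makeup shared by all genes of a library. The closest pairs were Col11a1 with Col27a1 (0.22), Col11a1 with Col2a1 (0.22) and Col1a1 with Col1a2 (0.32). Col11a1 with its own partner Col11a2 was at 0.53, and the farthest pair was Col11a2 with Col3a1 (1.75). Among 11926 other genes, Wwp2, an E3 ubiquitin ligase gene, was nearest to Col27a1 (0.16), followed by Raph1 (0.17) and Fgfrl1 (0.18). Nearest to Col2a1 were Kcna6 (0.28), Fgfrl1 (0.35) and Gramd2 (0.36), and nearest to Col1a1 were Cd276 (0.29), Serpinf1 (0.30) and AU020206 (0.34).

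Genes that build, cut or sense fibrillar collagen were taken from 7 lists of 76 genes, of which 73 passed the filter on low values (not Tll1, Mmp1a and Gp6). After injury in mutants 14 rose and 20 fell by limma's adjusted p. These 34 calls are 46.6% of the 73 genes, beside 30.8% of all genes tested, 13.1% as higher and 17.7% as lower. The lists were chosen with earlier results of these data known, so a share or median beyond that of all genes is no evidence for the lists. The counts of each list below stand beside those same shares. The split was 18 to 15 under median-of-ratios scaling and 16 to 18 under quantile normalization, while over all genes 42.6% of calls were higher in the main scaling, 52.1% under median-of-ratios and 47.9% under quantile normalization. In wild-type mice 0 of 73 passed limma's adjusted p of 0.05, beside 0.116% of all genes tested. An unadjusted p under 0.05 was found for 24 (32.9%), beside 17.2% of all genes. The interaction passed for 0 of the 73, as for 0% of all genes. Its unadjusted p was under 0.05 for 10 (13.7%), beside 8.18% of all genes. A difference between genotypes in the effect of injury was thus shown for no listed gene. Without passing, wild-type mice differed by a log2 of 4.51 for Lum, 3.24 for Mmp13, 2.14 for Col12a1 and -1.12 for Comp. The value was -0.23 for Itga11, and for Pcolce it was 0.41, opposite in sign to mutants. The genes named below are the largest called changes of each list. With only M-named mutants kept, 17 of these 20 genes lost the call, and Crtap, Tgm2 and Egr2 passed. With only A8-named mutants kept, 8 of the 20 lost it, namely Col9a3, Adamts2, Pcolce, Sec23a, Lum, Ctsk, Egr2 and Mkx.

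Of 12 genes of cross-linking and fibril width, 7 rose and 2 fell in mutants under all 3 scalings, with a list median of 1.0003 beside -0.08 for all genes. Lum, a proteoglycan gene that limits fibril width, stood at a mean of 1.55 ± 1.16 TPM (SD, n = 4) in intact and 62.5 ± 77.1 TPM (n = 5) in injured mutants (log2 change 4.08, limma adjusted p = 0.009108). Tgm2, a cross-linking transglutaminase gene, rose from 39.2 ± 11.1 to 509 ± 263 TPM (3.53, limma adjusted p = 0.0002778). Comp, whose pentameric product binds collagen fibrils, fell from 3685 ± 180 to 757 ± 460 TPM (-2.54, limma adjusted p = 0.001854).

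Of 6 collagen-degrading proteases tested, 2 rose and 0 fell under all 3 scalings. Mmp13, the main collagenase for type II collagen in rodents, stood at 0.760 ± 0.316 TPM in intact and 102 ± 166 TPM in injured mutants (4.55, limma adjusted p = 0.01246), and Ctsk, encoding the collagen-cutting cathepsin K, rose by 0.97 (limma adjusted p = 0.009258). Of 8 collagen receptors tested, 0 rose and 6 fell under all 3 scalings, with a list median of -1.04. Those with the largest falls were the collagen-binding integrin genes Itga11 (-1.74, limma adjusted p = 0.002098), Itga1 (-1.68, limma adjusted p = 0.03233) and Itga10 (-1.41, limma adjusted p = 0.0004823). The Itga1 call was lost without intact mutant 1, 2 or 4 or injured mutant 1 or 3, with an adjusted p of up to 0.1003.

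Of 8 other fibrillar and fibril-associated collagens, 1 rose and 2 fell. Col12a1, which coats type I fibrils, rose by 2.60 (limma adjusted p = 0.005243), Col9a3, which decorates type II fibrils, fell by 1.63 (limma adjusted p = 0.02112) and Col16a1 fell by 0.93 (limma adjusted p = 0.004517). The Col9a3 call was lost without intact mutant 3 or 4 (adjusted p of up to 0.0585). Of 17 genes of procollagen folding and hydroxylation, 1 rose and 5 fell, 3 and 3 under median-of-ratios scaling and 2 and 5 under quantile normalization. P4ha3, a prolyl hydroxylase subunit gene, fell by 1.76 (limma adjusted p = 0.004063), Plod3, a lysyl hydroxylase gene, rose by 0.90 (limma adjusted p = 0.002097), and Crtap, part of the prolyl 3-hydroxylation complex, fell by 0.80 (limma adjusted p = 0.0006285).

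Between genotypes in injured discs, 1 of 73 listed genes passed limma's test (1.37%), near the 0.918% of all genes. At an unadjusted p under 0.05 there were 22 (30.1%), beside 20.3% of all genes. The gene that passed was Crtap, with 185 ± 21.9 TPM (n = 5) in mutants and 283 ± 49.2 TPM (n = 4) in wild-type mice (-0.61, limma adjusted p = 0.03372). That call was lost in 10 of the 16 fits that left out a mouse, with an adjusted p of up to 0.1329: without intact wild-type mouse 1, injured wild-type mouse 1, 2 or 4, intact mutant 1, 2 or 4, or injured mutant 1, 3 or 5. It was also lost in a fit of the 2 groups alone (adjusted p = 0.224), with the replicate block (0.09316), and with only M-named (0.08825) or only A8-named mutants (0.1786). Its interaction had a limma adjusted p of 0.4879.

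Of 11 genes of export and propeptide removal, 1 rose and 2 fell, but 2 rose and 0 fell under median-of-ratios scaling and 2 and 1 under quantile normalization. Adamts2, a procollagen N-proteinase gene, fell by 0.77 (limma adjusted p = 0.04229), Pcolce, an enhancer of C-propeptide cleavage, fell by 0.67 (limma adjusted p = 0.03548), and Sec23a, a coat gene of vesicles leaving the endoplasmic reticulum, rose by 0.46 (limma adjusted p = 0.02307). All 3 calls were lost without certain mice. Adamts2 lost its call without any of 9 mice (adjusted p of up to 0.1017), namely intact wild-type mice 1 and 3, injured wild-type mouse 4, intact mutants 1 to 4 and injured mutants 1 and 3. Pcolce lost it without any intact mutant or injured mutant 1 (up to 0.08079), and Sec23a without intact mutant 1 or 2 (up to 0.05956). Without injured mutant 3 the Pcolce value was -0.45.

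Of 11 transcription factors that act on fibrillar collagen genes, 2 rose and 3 fell, with 3 and 2 under median-of-ratios scaling and 2 and 2 under quantile normalization. Egr2, an immediate early factor gene, rose by 2.19 (limma adjusted p = 0.001791), Mkx, a factor of tendon and annulus, fell by 1.27 (limma adjusted p = 0.0036), and Runx2, a factor of bone and hypertrophic cartilage, rose by 0.82 (limma adjusted p = 0.01017). Sox9, the activator of Col2a1 and Col11a2, stood at 482 ± 89.3 TPM (n = 4) in intact and 751 ± 244 TPM (n = 5) in injured mutants and did not pass (0.58, limma adjusted p = 0.07571). It was named for its role after its value was seen.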

How the data were processed

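The authors deposited TPM values in 1 file, 1 column for each mouse, and each column sums to 1000000 over 49315 genes. Per the submitters' processing notes, bcl2fastq 2.20 and build GRCm38 were used. Ribosomal RNA was depleted, per the labels' protocols, while the molecule field of the labels reads polyA RNA. The aligner, counting method, its use of strand and the annotation are not given in the sources used here. Groups came from the titles.

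The members and all gene lists were chosen with earlier results of these data known. Tests used limma 3.58.1 (R 4.3.3; lmFit, then eBayes with a trend) on log2(TPM + 1), so changes of low genes are understated. A single model with a mean for each group was fitted to the 16 libraries. It covered the 24188 genes that reached 1 TPM in 3 or more libraries, all 10 members among them. Adjusted p-values follow Benjamini and Hochberg over those genes, and a value under 0.05 is a call. Errors are standard errors of the fit from each gene's own residual spread, unless given as SD. The p-values use the spread as moderated by eBayes, so an error and the p-value beside it do not match exactly. The script was tested on simulated data. Same-numbered mice are different animals, and 1 of 21 same-numbered pairs had deviations correlated above 0.1, so the numbers were not used as pairs.

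Depth was approximated: dividing TPM by what 1 read is worth, from exon lengths of GENCODE release M21, put 94.2% to 95.0% of values under 20 reads within 0.05 of a whole number. The identifiers of 48970 genes (99.3%) were found there. No counting intervals were made from these approximations. Named genes were all members, the 3 largest called changes for injury in mutants of each list, listed genes called in another contrast, and the 3 genes most like Col2a1, Col1a1 and Col27a1 (mean of at least 5 TPM). Tables and figures used Python 3.11.15, pandas 2.3.3 and matplotlib 3.10.9.

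The alternatives changed the pseudocount (0.1), the filter (none, or 5 TPM on average), the scaling (quantile or median-of-ratios), the trend, the libraries in the fit (the compared groups alone, M-named mutants alone, or all but 1 mouse) and the model (sample weights, a replicate block, covariates for A8 names or for skeletal muscle). Added after seeing the data were a fit with only A8-named mutants and a fit with separate means for A8 and M names.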

Additional observations from a re-analysis of the deposited data

Results flagged for a closer look

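In 6 of the 57 sets of values examined (a group of 4 or 5 mice for 1 gene, ratio or share), a single mouse stood far from the others of its group, by Dixon's gap criterion at the 95% level. For independent sets of normally distributed values chance would mark about 1 in 20. The sets here share mice and were not checked for a normal distribution, so that rate need not hold.

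Injured mutant mouse 2 stood apart in 3 cartilage chains. Its Col2a1 level was 658 TPM, where the other injured mutants had 3218 to 3713 TPM. Its Col11a1 level was 68.0 TPM beside 240 to 286 TPM, and its Col27a1 level was 51.3 TPM beside 156 to 187 TPM. Injured wild-type mouse 3 stood apart in Col5a1, at 543 TPM beside 260 to 287 TPM, in the ratio of Col1a1 to Col1a2, at 5.80 beside 3.29 to 3.48, and in the cartilage-type share of fibrillar collagen TPM, at 11.8% beside 72.1% to 74.2%.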

How the results depend on the processing

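Changing the processing or leaving out 1 mouse turned the sign of 90 values over 21 results, 45 of the values in fits that left out a mouse. None of these results had passed the test as reported, where the largest of them was 0.70 in size (log2). The cause was not tested for any change below. The calls of Col3a1 and Col5a2 in mutants held under both other filters, pseudocount 0.1, both other scalings, no trend, both covariates, only the groups compared and sample weights, and were lost with the replicate block, with only M-named or only A8-named mutants, and without single mice. Fits of only the groups compared gave no separate interaction. The precision that depth allows was not estimated.

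The members called for injury in mutants were 4 with sample weights, 4 with only the groups compared, 1 with the replicate block (Col11a2), 3 with median-of-ratios scaling (Col5a3 added), 3 with either covariate (Col11a2 added), and 0 with only M-named or only A8-named mutants, beside 2. Leaving out 1 mouse gave 0 to 4 there, 0 to 2 for injury in wild type and 0 to 1 for genotype in injured discs.

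Genes called over the whole table for injury in wild type (28) were 64 with pseudocount 0.1, 11 without the filter, 17 with median-of-ratios scaling, 13 without trend, 77 with sample weights, 4 with only the groups compared, 5 with the replicate block, 7 with only A8-named mutants and 2 with the muscle covariate. For injury in mutants (7438) they were 725 with M-named and 3583 with A8-named mutants. For genotype in intact discs (4) they were 8 with sample weights, 2 with the replicate block, 2 with M-named and 8 with A8-named mutants. For genotype in injured discs (222) they were 86 without the filter, 93 with quantile normalization, 1070 with sample weights, 5 with only the groups compared, 11 with the replicate block, 392 with the A8 covariate, 2 with A8-named mutants and 578 with the muscle covariate. For the interaction (0) they were 4 with sample weights. Leaving out 1 mouse gave 2 to 452 for injury in wild type (452 without injured wild-type mouse 1), 1 to 7 for genotype in intact discs, 7 to 2253 for genotype in injured discs (2253 without injured wild-type mouse 3) and 0 to 15 for the interaction.

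Turned signs for injury in wild type were Col11a2 at 0.23 with sample weights and 0.64 with the muscle covariate. For injury in mutants, Col2a1 and Col11a1 were 0.051 and 0.086 with median-of-ratios scaling, 0.21 and 0.20 with sample weights, 0.088 and 0.011 with M-named mutants, and 0.013 and 0.037 with the muscle covariate. Col11a1 was 0.00737 with quantile normalization, and Col1a2 was 0.017 with A8-named mutants.

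For genotype in intact discs, Col27a1 was -0.038 with sample weights, -0.012 with the replicate block and -0.43 with A8-named mutants. Col1a1 was -0.20 with the A8 covariate and -0.088 with the muscle covariate, Col3a1 was -0.029 with the muscle covariate, and Col11a1 and Col11a2 were -0.21 and -0.078 with A8-named mutants.

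For genotype in injured discs, Col3a1 was 0.088 with median-of-ratios scaling, 0.095 with sample weights, 0.11 with the replicate block, 0.97 with A8-named mutants and 0.048 with the muscle covariate. Col27a1 was -0.034 with quantile normalization, -0.11 with the replicate block, -0.49 with A8-named mutants and -0.029 with the muscle covariate. Col11a1 was 0.000492 with the A8 covariate and 0.038 with M-named mutants, Col5a3 was -0.11 and -0.31 there, and Col1a1 was 0.22 with A8-named mutants.

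For the interaction, Col27a1 and Col5a1 were 0.052 and 0.04997 with median-of-ratios scaling, and 0.14 and 0.062 with sample weights. Col5a3 was -0.30 with M-named mutants. Col3a1, Col5a1 and Col5a2 were 0.10, 0.15 and 0.20 with A8-named mutants, and 0.077, 0.073 and 0.36 with the muscle covariate.

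The signs turned by leaving out 1 mouse, counted above, are given as ranges over such fits. The ranges were -0.35 to 0.52 for Col11a2 with injury in wild type, and -0.18 to 0.44 for Col2a1 and -0.13 to 0.39 for Col11a1 with injury in mutants. For genotype in intact discs they were -0.00084 to 0.25 for Col11a1, -0.15 to 0.27 for Col27a1 and -0.28 to 0.018 for Col5a3. For genotype in injured discs they were -0.68 to 0.073 for Col11a1, -0.17 to 0.35 for Col27a1, -0.70 to 0.78 for Col3a1, -0.051 to 0.76 for Col5a2 and -0.19 to 0.47 for Col5a3. For the interaction they were -0.26 to 0.29 for Col27a1, -1.32 to 0.15 for Col3a1, -0.19 to 0.20 for Col5a1, -0.47 to 0.34 for Col5a2 and -0.085 to 0.57 for Col5a3. The index difference also changed sign between single-mouse fits in wild type (-1.28 to 0.03).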
